A study of Mus musculus with 6 samples.

Results

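The clustered protocadherins are a family of cadherin-type adhesion proteins whose genes lie side by side on mouse chromosome 18 in a tandem of 3 gene clusters, Pcdha, Pcdhb and Pcdhg. Members were taken by symbol from the deposited table: 56 of the 24841 genes listed, of which 14 belong to Pcdha, 21 to Pcdhb (Pcdhb2 to Pcdhb22) and 21 to Pcdhg (12 Pcdhga, 6 Pcdhgb and 3 Pcdhgc genes). Nuclei came from dissected, frozen striatal tissue. There were 3 wild-type libraries and 3 libraries from mice labelled heterozygous for Celsr3, a seven-pass cadherin gene, 1 per biological replicate. All 6 libraries were made with 10x Genomics 3′ v3.1 chemistry and run on the same sequencing lane. The allele of Celsr3 and the sex, age, strain and litter of the mice are not given in the sources used here, and a replicate was taken to be 1 mouse. The study asked how the striatum differs in Celsr3 heterozygous mice. Its labels also allow the members to be compared between cell classes.

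Each clustered protocadherin promoter drives its own first exon, and a neuron uses only a few of the alternate promoters, in a choice that depends on CTCF, cohesin and DNA methylation. The proteins pair in cis and then bind the same set of proteins on an opposing membrane, which lets a neuron tell its own dendrites and axons from those of its neighbours. Within Pcdha and Pcdhg, the alternate members are distinguished from the C-type members (Pcdhac1, Pcdhac2, Pcdhgc3, Pcdhgc4 and Pcdhgc5), whose promoters are regulated in a cell type-specific way. In striatal neurons, as elsewhere in the brain, loss of these proteins is known to disturb dendrites, axons and the survival of some interneurons.

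In the GENCODE M21 annotation (GRCm38, 1-based) the Pcdha genes span positions 36930184 to 37187661 of chromosome 18, the listed and unlisted Pcdhb genes span 37264938 to 37524479 and the Pcdhg genes span 37661793 to 37841873. The clusters differ in what a 3′ library can tell apart. All 14 Pcdha models share their 3′ end with each other, and so do the 21 listed Pcdhg models, whereas none of the 21 listed Pcdhb models shares a 3′ end with a member. The median share of a gene's exon bases that overlap no exon of another gene on the same strand was 46.4% in Pcdha (8.6% to 61.1%), 55.4% in Pcdhg (33.2% to 68.5%) and 100% in Pcdhb (at least 90.3%). An antisense gene overlaps exons of 4 Pcdha, 1 Pcdhb and 8 Pcdhg models, and whether counting used the strand is not given in the sources used here. Values of single Pcdha and Pcdhg members are therefore uncertain in how reads were split among them. How reads at a shared 3′ end were counted is not given either. Sums and shares compared between Pcdhb and the other gene clusters carry this limit, and its size was not tested. In addition, the table holds a pair of rows for the symbol Pcdha11, the second written Pcdha11.1, and which gene model each stands for could not be told.

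A level is given below as the value per 1000 nuclei, that is 1000 times the mean over the nuclei of a library of a depth-corrected, rounded UMI value. The 47996 nuclei kept, 7608 to 8711 per library, were clustered without the members among the variable genes, and 40018 of them fell in classes named from marker genes. Of these, 8505 were D1 MSN-like and 7111 were D2 MSN-like (medium spiny neurons of the direct and indirect pathway), 1460 were GABAergic interneuron-like and 218 cholinergic interneuron-like. There were 5320 astrocyte-like, 966 OPC-like (oligodendrocyte precursor), 5133 oligodendrocyte-like and 2347 microglia-like nuclei. A further 4611 nuclei were glutamatergic neuron-like, 262 to 1505 per library, a kind of neuron that the striatum proper does not hold, and their source was not tested. Defining markers stood in their class and at a low level outside it. Drd1 (dopamine receptor D1) had a mean value per nucleus of 1.02 in D1 MSN-like nuclei and 0.114 to 0.19 in D2 MSN-like, GABAergic interneuron-like, glutamatergic neuron-like, astrocyte-like, OPC-like, oligodendrocyte-like and microglia-like nuclei. Adora2a (an adenosine receptor) had 1.82 in D2 MSN-like nuclei and at most 0.206 in these other classes. These low values give the scale of RNA found outside its own cell type. The median number of genes detected per nucleus, averaged over libraries, was 3385 and 3260 in D1 and D2 MSN-like, 3556 in GABAergic interneuron-like and 3619 in glutamatergic neuron-like nuclei. It was lower in OPC-like (2117), astrocyte-like (2024), microglia-like (1900) and oligodendrocyte-like nuclei (1874).

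The targeted gene was lower in every heterozygous library. Celsr3 stood at 74.7, 99.8 and 108 per 1000 nuclei in the wild-type and at 61.5, 69.4 and 64.6 in the heterozygous libraries (here and below always replicates 1, 2 and 3, in that order). Wild-type D1 MSN-like nuclei had 166 ± 15.1 and heterozygous ones 92.8 ± 13.7 (SD over 3 libraries), and the groups did not overlap. The change did not pass the threshold over all genes tested (−0.78 ± 0.14 on the log2 scale, adjusted p = 0.138 in limma). For log2 changes, here and below, the value after ± is the standard error of the limma estimate.

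The 3 gene clusters were spread differently over the classes. In D1 MSN-like nuclei the summed level of the 14 Pcdha members was 206, 230 and 222 per 1000 nuclei in the wild-type and 189, 215 and 204 in the heterozygous libraries. The 21 Pcdhb members summed to 799, 990 and 896 in the wild-type and 758, 968 and 890 in the heterozygous libraries. The 21 Pcdhg members summed to 400, 478 and 473 in the wild-type and 475, 533 and 491 in the heterozygous libraries. For each gene cluster the genotypes overlapped in this class. Pcdhb made up 56.2% of the summed value, Pcdhg 30.3% and Pcdha 13.5%. D2 MSN-like nuclei had sums of 208 ± 18.3 for Pcdha, 851 ± 84.7 for Pcdhb and 473 ± 29.6 for Pcdhg. The value after ± of a level, ratio, number of members or share of nuclei is the SD (n = 6 libraries here and below unless stated).

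The other neuronal classes had higher mean Pcdha sums than D1 MSN-like nuclei, by amounts that moved with the genes detected per nucleus (given further down). The Pcdha sum was 284 ± 31.3 in GABAergic interneuron-like, 347 ± 26.4 in glutamatergic neuron-like and 382 ± 73.5 in cholinergic interneuron-like nuclei, the last from 218 nuclei in all. All 6 glutamatergic neuron-like libraries, at 314 to 372, lay above all 6 D1 MSN-like libraries. In GABAergic interneuron-like nuclei wild-type replicate 2 stood apart at 226, within the D1 MSN-like range, and the other 5 libraries, at 286 to 321, lay above it. Pcdhb sums were 963 ± 129, 977 ± 106 and 881 ± 211 in these classes, ranges that overlapped those of D1 MSN-like nuclei. The Pcdhg sum was 369 ± 69.1 in GABAergic interneuron-like nuclei, 0.634 to 0.87 times the D1 MSN-like sum of the same library, and 548 ± 78.0 in glutamatergic neuron-like ones. The latter overlapped the D1 MSN-like range, and heterozygous replicate 2 stood apart there at 696, against 479 to 560 in the others. Neuroblast-like nuclei, most of them in a cluster led by Top2a, a gene of dividing cells, had less Pcdha (155 ± 19.6) and Pcdhb (387 ± 55.2) than D1 MSN-like nuclei in every library, with a Pcdhg sum of 368 ± 67.4.

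The glial classes differed from each other in what they held. In astrocyte-like nuclei the Pcdha sum was 7.05, 6.58 and 12 in the wild-type and 16.5, 9.40 and 12.4 in the heterozygous libraries, far below every neuronal library. The Pcdhb sum was 243 ± 39.1. The Pcdhg sum was 380, 405 and 376 in the wild-type and 376, 355 and 371 in the heterozygous libraries, so Pcdhg made up 60.0% and Pcdha 1.72% of the summed value. OPC-like nuclei had sums of 102 ± 20.4 for Pcdha, 491 ± 77.1 for Pcdhb and 405 ± 42.3 for Pcdhg. Oligodendrocyte-like nuclei were low in all 3 gene clusters, at 12.7 ± 5.81, 217 ± 30 and 158 ± 19.2. Microglia, which are not of neural origin, were taken as a reference for background, and whether their values are background only was not tested. Microglia-like nuclei had 10.8 ± 7.65 for Pcdha, 132 ± 34.4 for Pcdhb and 142 ± 35.5 for Pcdhg. Pcdha made up 3.76% of their summed value, against 13.2% in all nuclei, and Pcdhg 49.9%, against 33.1%. The Pcdha sums of astrocyte-like and oligodendrocyte-like nuclei were at the microglia-like level, and the Pcdhg sum of oligodendrocyte-like nuclei overlapped it.

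**Figure D1:**
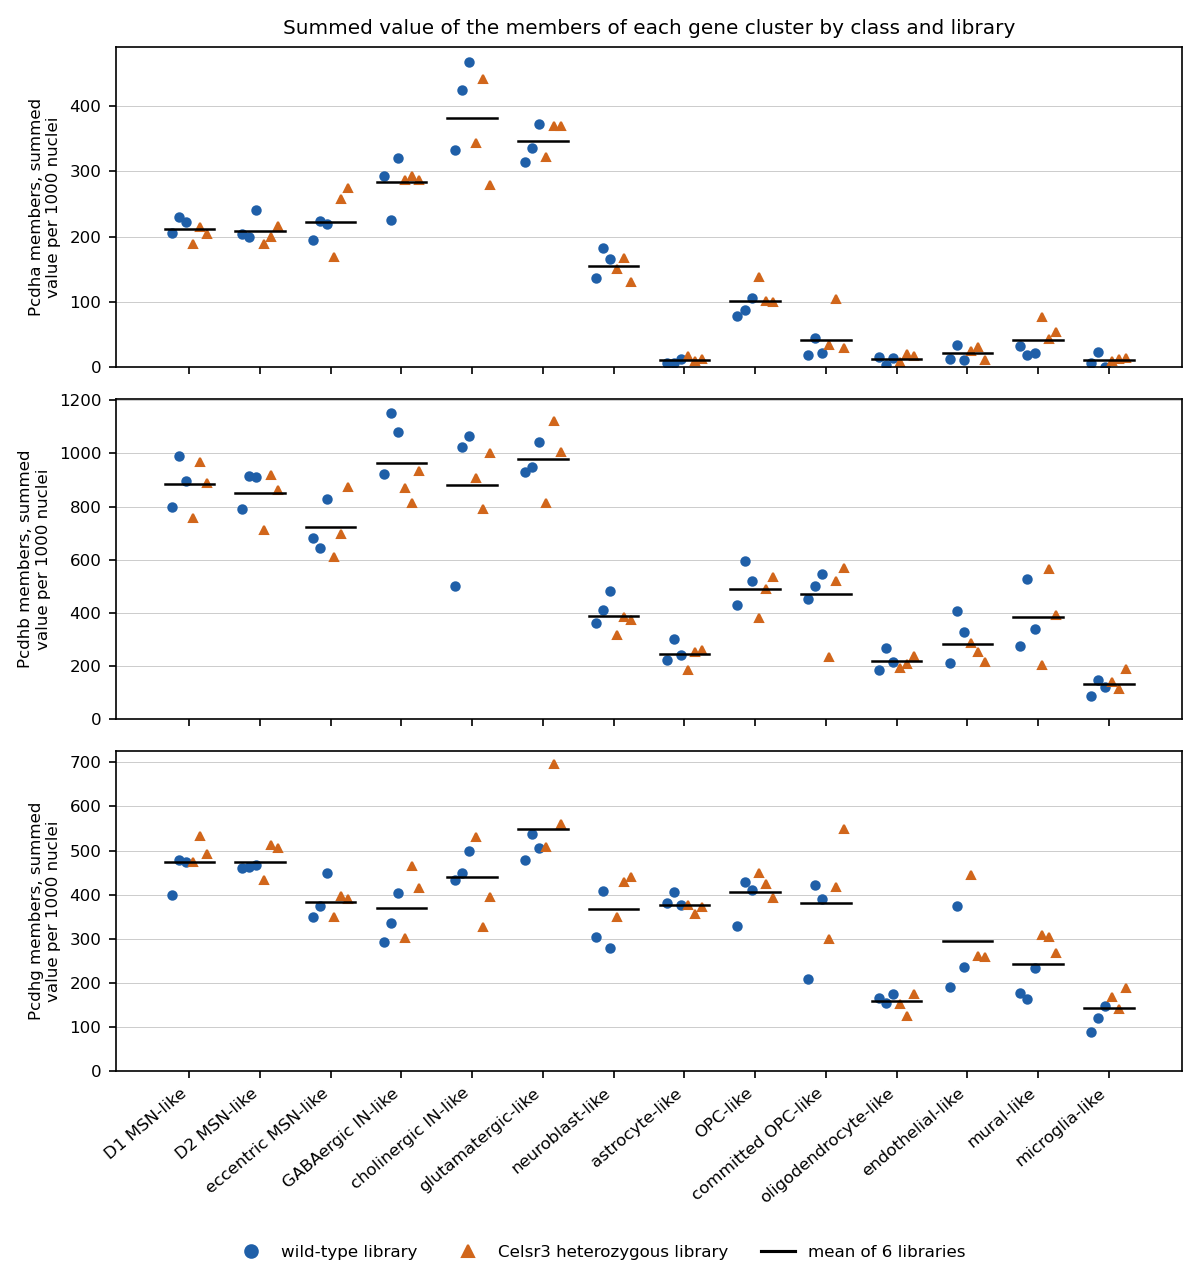
Summed value per 1000 nuclei of the Pcdha, Pcdhb and Pcdhg members (vertical axes, linear) in 14 classes (horizontal axis). Circles are the 3 wild-type and triangles the 3 Celsr3 heterozygous libraries, and lines are means of 6 libraries. Pcdha is 347 in glutamatergic neuron-like and 10.7 in astrocyte-like nuclei, while Pcdhg is 475 in D1 MSN-like and 377 in astrocyte-like nuclei.

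These ratios moved with the number of genes detected, which was lower in glia. Within a library, the astrocyte-like level of Pcdhg was 0.801 ± 0.0943 times the D1 MSN-like level over all nuclei and 1.53 ± 0.253 times among nuclei of both classes with 2000 to 3000 genes. For OPC-like nuclei the same ratio went from 0.854 to 1.77 (5 libraries), so the direction of the Pcdhg difference turned in both classes. Among such nuclei the OPC-like sums were 89.4 ± 43.3 for Pcdha, 501 ± 79.1 for Pcdhb and 476 ± 97.3 for Pcdhg (5 libraries), and the D1 MSN-like sums were 133 ± 31.4, 559 ± 78.1 and 285 ± 51.1. For Pcdha the astrocyte-like ratio was 0.0514 and 0.1, and for Pcdhb it was 0.274 and 0.464, both below 1 either way. The Pcdha ratio of GABAergic interneuron-like nuclei went from 1.35 to 1.03, and that of glutamatergic neuron-like nuclei from 1.65 to 1.18 (4 libraries). The part of the gene count per nucleus in these differences was not tested beyond this range, which keeps the shallower part of the neurons and the deeper part of the glia. The range did not make the classes equal. Median genes per library within it were 2696 to 2814 in D1 MSN-like, 2202.5 to 2267.5 in astrocyte-like and 2145 to 2359 in OPC-like nuclei.

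**Figure D2:**
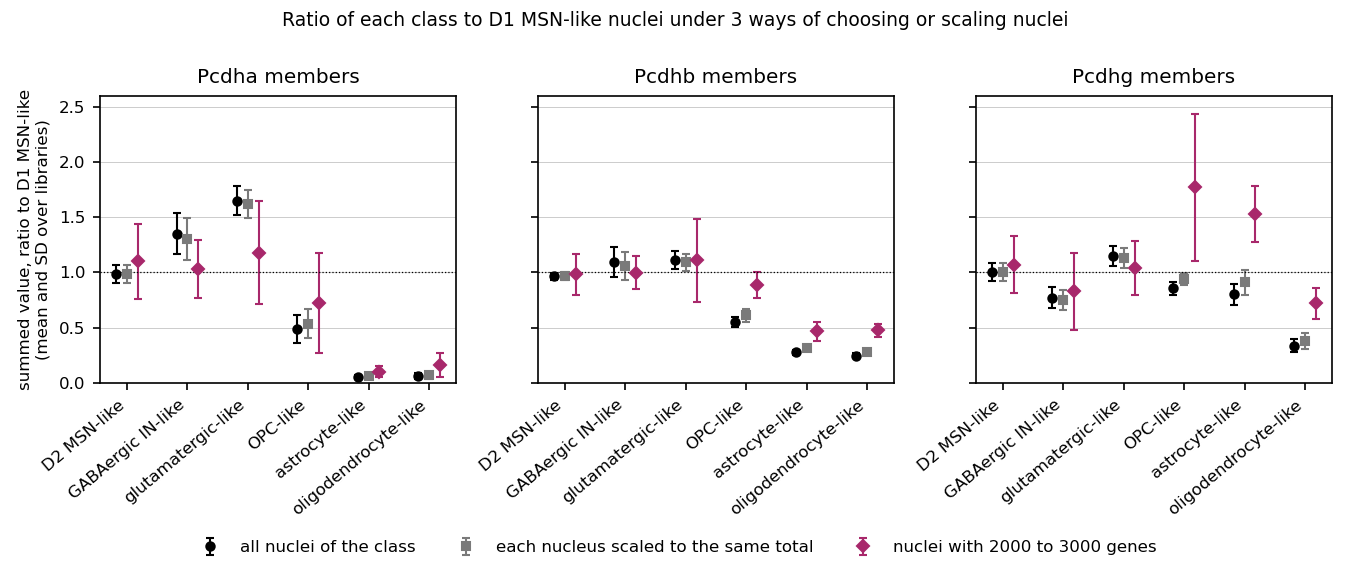
Summed level of each gene cluster as a ratio to D1 MSN-like nuclei of the same library (vertical axis; points are means and bars SD over libraries), for 6 classes. Circles use all nuclei, squares scale each nucleus to the same total, and diamonds keep nuclei with 2000 to 3000 genes. The Pcdhg ratio of astrocyte-like nuclei is 0.801 with all nuclei and 1.53 with nuclei of 2000 to 3000 genes, while the Pcdha ratio stays at or below 0.1.

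A single nucleus showed few members. D1 MSN-like nuclei had on average 1.51 ± 0.137 members above 0, with at least 1 member in 73.2% ± 2.92 of nuclei and at least 2 in 41.8%. Glutamatergic neuron-like nuclei had 1.81 ± 0.197 members, and at least 1 in 77.2% ± 4.12. The number was 0.570 in astrocyte-like, 0.342 in oligodendrocyte-like and 0.197 ± 0.0549 in microglia-like nuclei, where 16.9% ± 4.21 of nuclei had at least 1. At least 1 Pcdha member was above 0 in 18.4% of D1 MSN-like, 28.4% of glutamatergic neuron-like, 0.986% of astrocyte-like and 0.829% of microglia-like nuclei. At least 1 Pcdhg member was above 0 in 35.6% of D1 MSN-like, 28.4% of astrocyte-like, 13% of oligodendrocyte-like and 9.42% of microglia-like nuclei. These shares count nuclei with a value, which depends on depth, and do not count the promoters a cell uses.

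Among the alternate members, a few carried much of each gene cluster's value. The highest Pcdha row was Pcdha11.1, at 53.3, 64.1 and 60.7 per 1000 D1 MSN-like nuclei in the wild-type and 61.1, 54.2 and 54.9 in the heterozygous libraries. Pcdhb17 was the highest Pcdhb member, at 108, 110 and 107 in the wild-type and 90.3, 125 and 94.3 in the heterozygous libraries. Pcdhga12 was the highest Pcdhg member, at 64.3, 88.4 and 92.7 in the wild-type and 65.7, 86.3 and 91.2 in the heterozygous libraries. Genotypes overlapped for all 3. Pcdhb14 (100 ± 12.7), Pcdhb16 (88.5 ± 18.3), Pcdhb19 (87.6 ± 13.1), Pcdhb20 (85.4 ± 9.31) and Pcdhb22 (83.2 ± 13.3) had overlapping ranges over the 6 libraries. Pcdha5 followed Pcdha11.1 at 36.7 ± 3.15. Each of the 3 also had the highest level of its gene cluster in glutamatergic neuron-like nuclei, with Pcdha11.1 at 96.4 ± 17.2, Pcdhb17 at 125 ± 10.0 and Pcdhga12 at 99.5 ± 20. Pcdha11, the other row with the symbol of Pcdha11.1, was far lower where the rows were compared. It was at 8.91 ± 6.2 against 58.8 ± 21.2 in neuroblast-like and 3.86 ± 6.1 against 37.5 ± 20.8 in OPC-like nuclei.

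The leading members were also measured over all nuclei, library by library. Pcdhb17 was at 63.9, 85.4 and 79.7 in the wild-type and 68.9, 80.2 and 68.9 in the heterozygous libraries, and Pcdhb14 at 58.2, 76.9 and 80.3 and at 66.4, 74.3 and 66.2. Pcdhb16 was at 47.2, 71.1 and 63.7 and at 54.1, 56.6 and 59.1, and Pcdhb19 at 50.5, 62.9 and 57.5 and at 48.4, 59.7 and 58.0. Wild-type replicate 1, which had the fewest genes per nucleus of the 6 libraries, held the lowest value of Pcdhb17, Pcdhb14 and Pcdhb16, and the part of that depth was not tested. Pcdhgb4 was at 25, 21.9 and 25.7 in the wild-type and 24.1, 28.8 and 26.2 in the heterozygous libraries. Pcdhgc5 was at 29.0, 36.3 and 35.5 and at 42.2, 34.4 and 27.9, and Pcdhgc4 at 27.1, 33.6 and 33.9 and at 28.2, 36.4 and 33.1. The genotypes overlapped for each of these 7. They overlapped too for Pcdha1, at 12.4, 15.8 and 17.7 and at 15.5, 13.6 and 14.2, and for Pcdhac2, at 16.0, 10.4 and 16.4 and at 15.8, 12.7 and 12.2.

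Levels of different genes were compared per kilobase of private exon, that is exon overlapping no exon of another gene on the same strand. Values of a 3′ library need not scale with exon length, so undivided levels are given for Pcdhb too. In D1 MSN-like nuclei the 9 genes Pcdhb14 to Pcdhb22, at the Pcdhg side of the cluster, had a median of 13.5 per kb, and the 12 genes Pcdhb2 to Pcdhb13, at the Pcdha side, had 3.99 per kb. The lowest was Pcdhb2 at 2.12 per kb and the highest Pcdhb20 at 24.0 per kb. Across the 21 Pcdhb genes, Spearman's rho of the level per kb with gene order was 0.70 in oligodendrocyte-like, 0.59 in astrocyte-like and 0.57 in GABAergic interneuron-like nuclei. It was 0.65 in glutamatergic neuron-like nuclei and 0.69 and 0.67 in the D1 and D2 classes. In D1 MSN-like nuclei rho of the undivided level was 0.7 with gene order and 0.67 with the exon length used as divisor. These are descriptions across genes, which share libraries and are not independent replicates, and the exceptions are large: Pcdhb7, in the lower block, was at 17.4 per kb. In Pcdhg, Pcdhga12, the last Pcdhga gene before the C-types, had the highest level per kb in D1 MSN-like (17.9), glutamatergic neuron-like (21.9) and oligodendrocyte-like nuclei (5.41). The Pcdhg median of D1 MSN-like nuclei was 6.10 per kb and the lowest was Pcdhga4 at 0.989 per kb. Across the 21 Pcdhg genes, rho of the level per kb with gene order ran from 0.31 in D1 MSN-like to 0.54 in astrocyte-like nuclei over the same classes. Per-kb values of Pcdha members rest on short private exons and were not ranked.

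**Figure D3:**
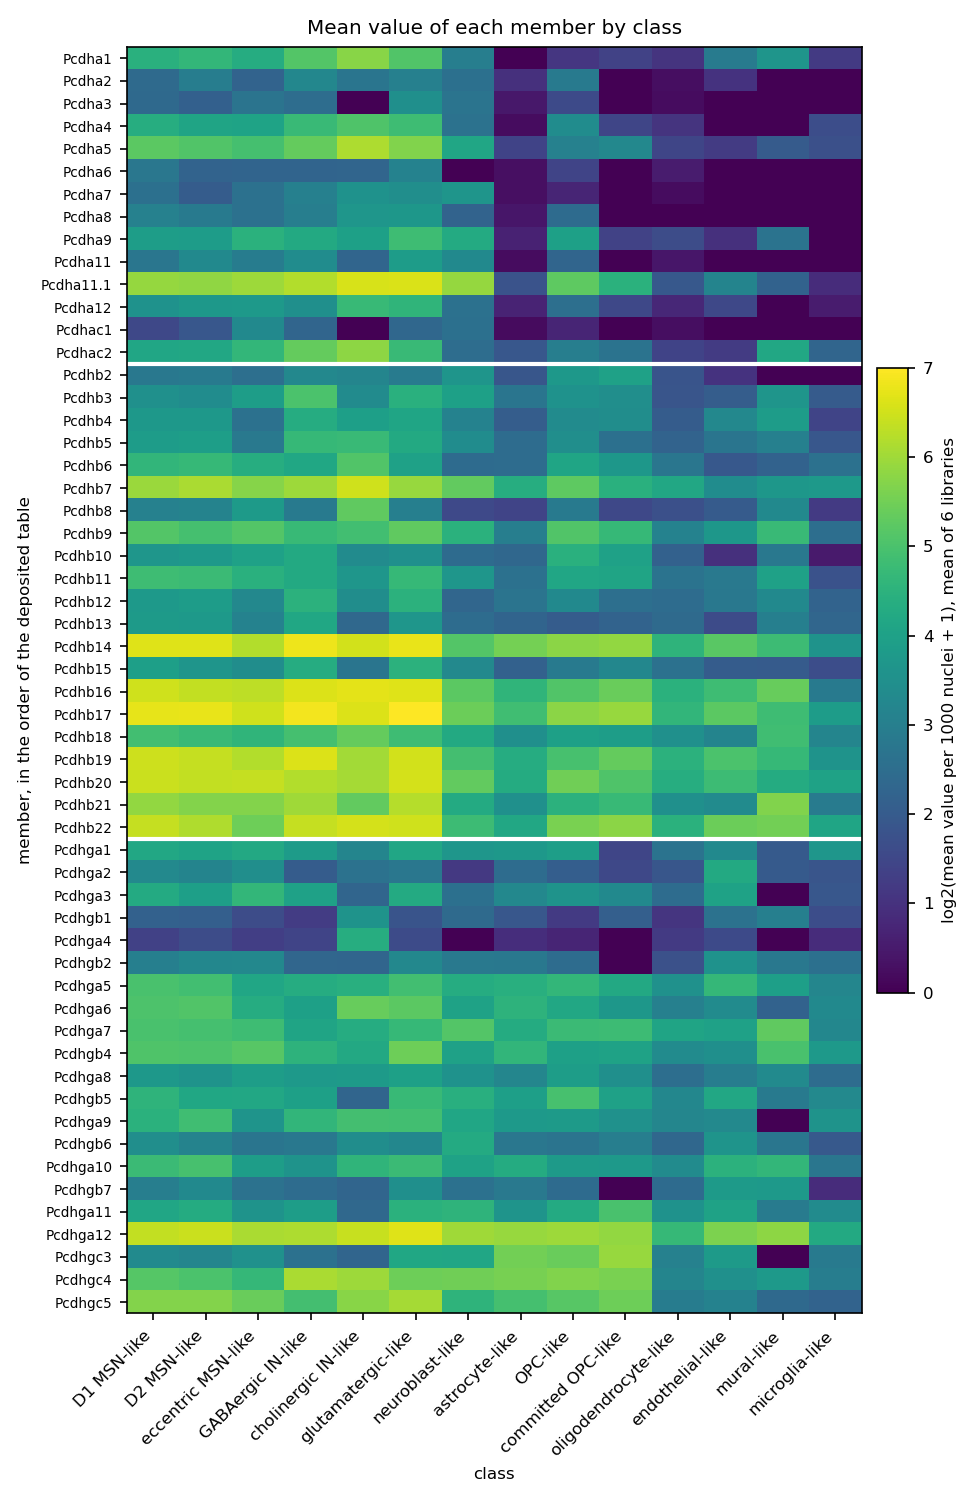
Mean value of each of the 56 members (rows, in table order; white lines part Pcdha, Pcdhb and Pcdhg) in 14 classes (columns), as log2(mean value per 1000 nuclei + 1), mean of 6 libraries; brighter is higher. Pcdhb14 and Pcdhb16 to Pcdhb22 form the bright block of the neuronal columns, with Pcdhb18 lower. The Pcdha rows are dark in astrocyte-like, oligodendrocyte-like and microglia-like nuclei, with Pcdha1 at 0 in the first, and Pcdhgc3 is brightest in astrocyte-like, OPC-like and committed OPC-like nuclei.

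The C-type members had class patterns of their own. Pcdhgc3 is known to act through Axin1 and to promote dendrite branching in cortex. Its highest class means were in astrocyte-like nuclei and in both precursor classes of the oligodendrocyte lineage. It stood at 38.8, 51.3 and 49.3 per 1000 astrocyte-like nuclei in the wild-type and 44.4, 48.1 and 33.3 in the heterozygous libraries. D1 MSN-like nuclei had it at 6.43, 3.31 and 17.2 in the wild-type and 10.6, 7.56 and 10.0 in the heterozygous libraries, so all 6 astrocyte-like libraries lay above all 6 D1 MSN-like ones. It was also high in OPC-like nuclei (41.1 ± 24.0) and in committed oligodendrocyte precursor-like nuclei (59.2 ± 25, from 420 nuclei). It was near the microglia-like level of 6.39 ± 5.31 in oligodendrocyte-like nuclei (7.49 ± 2.22) and in GABAergic interneuron-like nuclei (5.15 ± 3.57). The share of nuclei with a value was 4.1% in astrocyte-like, 0.907% in D1 MSN-like and 0.510% in microglia-like nuclei. Among nuclei with 2000 to 3000 genes the levels were 55.8 ± 12.4 in astrocyte-like and 3.30 ± 2.73 in D1 MSN-like nuclei. In that range oligodendrocyte-like nuclei had 14.8 ± 11 and microglia-like nuclei 4.83 ± 5.53. Among the 3 astrocyte-like clusters it was 49.3 ± 15.6 and 61.0 ± 18.7 in the clusters of 2970 and 874 nuclei, the latter led by Thbs4 and Tnc, and 23.4 ± 10.7 in the cluster of 1476 nuclei led by Etnppl and Agt. A neuronal cluster was as high: the glutamatergic neuron-like one led by Trpm6 (702 nuclei, 5 libraries with enough nuclei) had 39.6 ± 19.1, at 19.7 to 68.2. The class's other clusters with enough nuclei had means of 7.52 to 13.5.

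Pcdhgc4, the member known to be needed for the survival of cortical interneurons, was higher in GABAergic interneuron-like than in D1 MSN-like nuclei and was present in astrocyte-like ones. Its level in GABAergic interneuron-like nuclei was 55.6, 87.0 and 56.0 in the wild-type and 46.4, 93.9 and 71.8 in the heterozygous libraries. Among D1 MSN-like nuclei it was 30.3, 32.6 and 35.3 in the wild-type and 29.9, 39.7 and 37.9 in the heterozygous libraries, all below the lowest interneuron library. Of the GABAergic interneuron-like clusters, the one led by Vip (231 nuclei, 5 libraries with enough nuclei) had 128 ± 58.2 and the others 49.6 to 54.3. Astrocyte-like nuclei had 45.9 ± 4.29 and OPC-like nuclei 50.2 ± 26.0, against 6.88 ± 6.06 in microglia-like and 8.07 ± 3.71 in oligodendrocyte-like nuclei. Among nuclei with 2000 to 3000 genes it was at 42.7 ± 41 in GABAergic interneuron-like, 50.3 ± 9.6 in astrocyte-like, 44.1 ± 31.1 in OPC-like and 23.4 ± 5.87 in D1 MSN-like nuclei, so the order of these classes was not the same there. Per kb of private exon, Pcdhgc4 was the highest Pcdhg member of GABAergic interneuron-like nuclei, at 19.7.

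Pcdhgc5, whose protein is known to bind the GABA-A receptor, was lower in GABAergic interneuron-like than in D1 MSN-like nuclei. It stood at 46.9, 53.0 and 41.8 in wild-type and 63.7, 54.2 and 44.0 in heterozygous D1 MSN-like nuclei. In GABAergic interneuron-like nuclei it was at 15.2, 26.1 and 26.1 in the wild-type and 30.9, 44.2 and 30.8 in the heterozygous libraries, with only the highest of these reaching the D1 MSN-like range. The genotypes did not overlap there, and the share of all genes without overlap is not given for this class. Pcdhgc5 was not tested for genotype in it. Cholinergic interneuron-like nuclei, at 53.2 ± 35.2, overlapped the D1 MSN-like range. Pcdhgc5 was highest in glutamatergic neuron-like nuclei (65.9 ± 7.53), with 71.8 to 78.6 in 3 of their clusters and 41.3 and 39.7 in 2 others. Astrocyte-like nuclei had 29.6 ± 4.47, and oligodendrocyte-like (6.69 ± 3.69) and microglia-like nuclei (3.71 ± 2.03) were low.

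Pcdhac2, which is known to space the axons of serotonin neurons, had its highest means in interneurons, with a wide spread between libraries. It was at 70.7, 17.4 and 44.8 in wild-type and 51.5, 33.1 and 20.5 in heterozygous GABAergic interneuron-like nuclei, and at 55.4 ± 40.5 in cholinergic interneuron-like nuclei, where 1 library was at 0. D1 MSN-like nuclei had 16.8 ± 3.85 (12.4 to 23.8, overlapping the GABAergic range), glutamatergic neuron-like 25.7 ± 10.1, astrocyte-like 2.75 ± 2.58 and microglia-like 3.89 ± 4.11. Pcdhac1, which reaches the cell surface only with a partner protocadherin, was scarce in every class. Its level was 1.84 ± 0.820 in D1 MSN-like and 4.02 in glutamatergic neuron-like nuclei, and it was at 0 in all 2347 microglia-like nuclei, which allows a share of up to 0.128% of nuclei with a value. It was at 0 in the 218 cholinergic interneuron-like nuclei too, but there the limit is 1.38%.

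**Figure D4:**
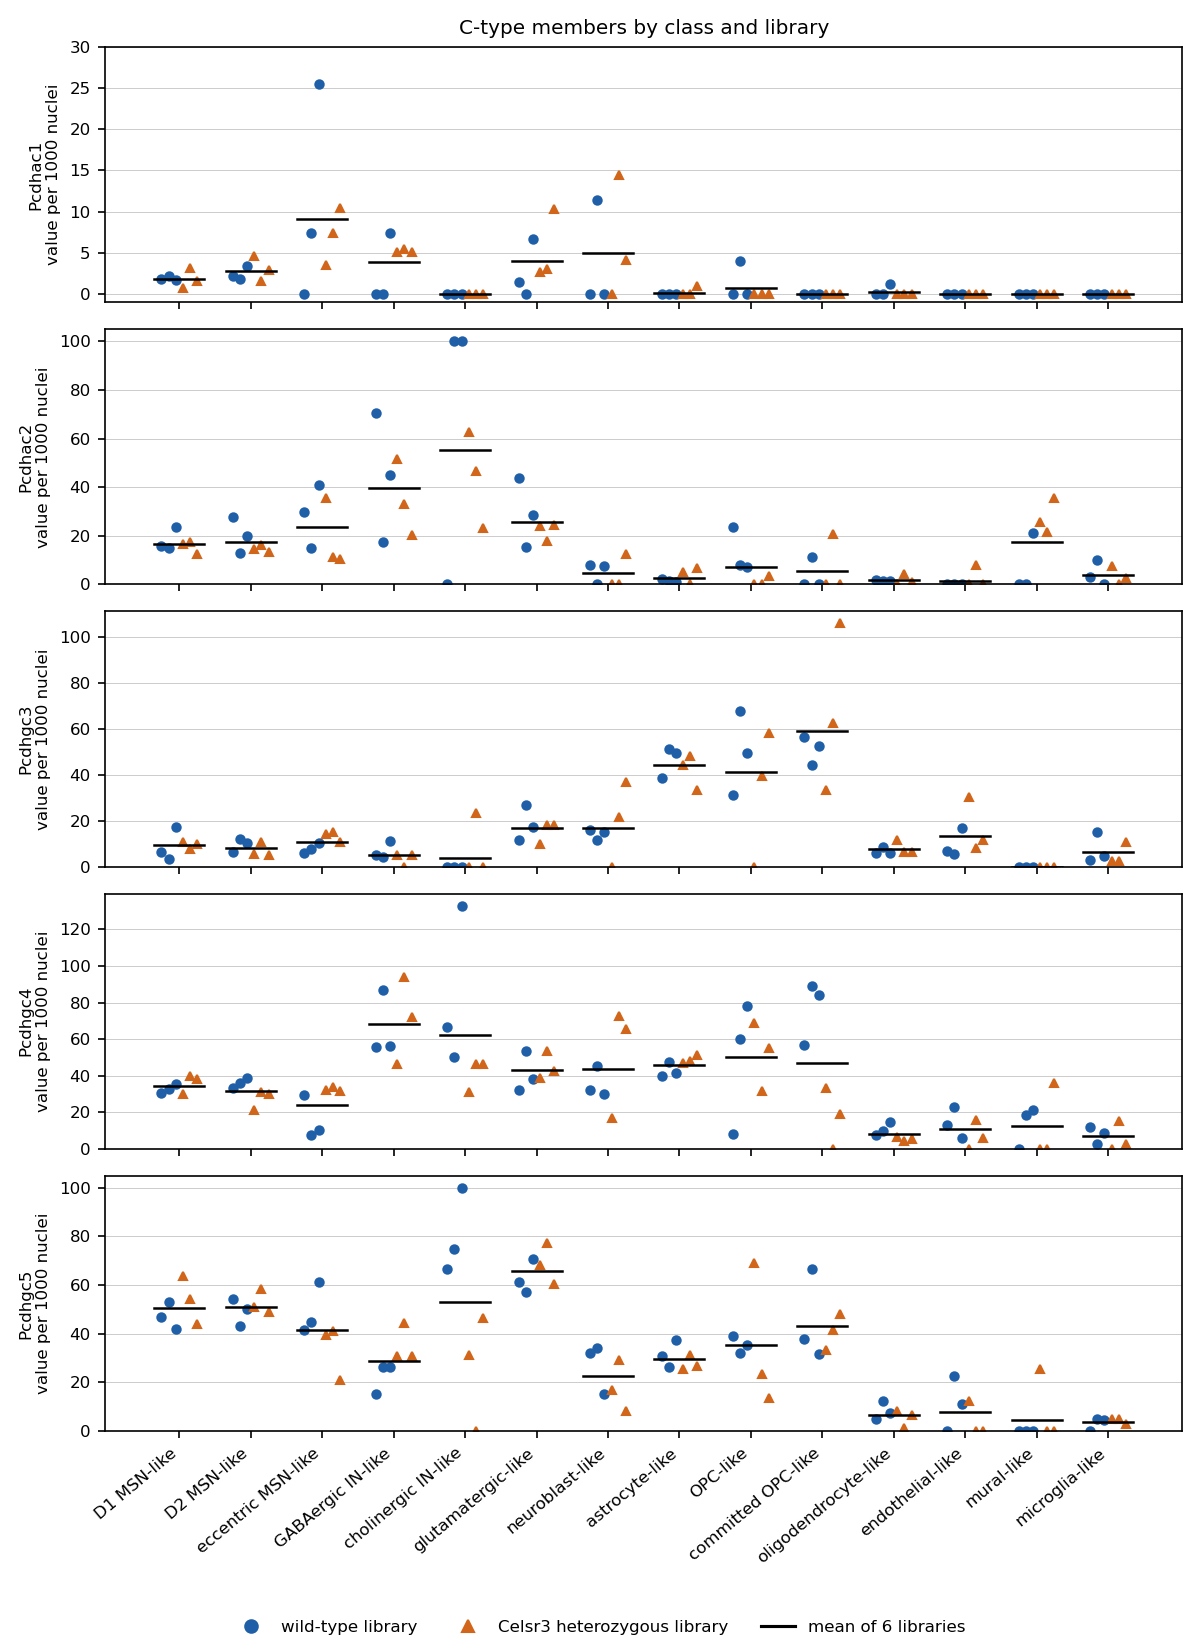
Value per 1000 nuclei of the 5 C-type members (vertical axes, linear) in 14 classes, with circles for the 3 wild-type and triangles for the 3 Celsr3 heterozygous libraries and lines for means of 6. Pcdhgc3 is at 44.2 in astrocyte-like against 9.20 in D1 MSN-like nuclei, Pcdhgc4 at 68.4 in GABAergic interneuron-like against 34.3 in D1 MSN-like nuclei, and Pcdhgc5 in the reverse order, at 28.9 and 50.6.

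Differences between classes were tested within libraries, on log2(mean value per nucleus + 0.01), with limma and Benjamini-Hochberg adjustment over all genes tested; a called gene has an adjusted p under 0.05. Fold changes on this scale understate those of low genes. Most genes differ between cell classes, so a member's call is read against the share of all genes called. A member passed the filter on low values mostly through its level in the higher class, so a fit of all 56 members without the filter is given beside each.

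In astrocyte-like against D1 MSN-like nuclei, 16 members were tested, and 15 were lower and 1 higher, where 67.8% of all 13046 genes tested were called lower and 21.4% higher. Pcdha11.1 fell from 58.0 ± 4.48 to 2.47 ± 0.485 per 1000 nuclei, with no overlap (−2.45 ± 0.11, adjusted p = 1.48e-10 in limma). Pcdhb22 fell from 83.2 ± 13.3 to 17.4 ± 4.15 (−1.77 ± 0.11, adjusted p = 5.98e-09). Pcdhgc5 fell by less (−0.61 ± 0.12, adjusted p = 0.000427), and Pcdhgc4 rose (0.34 ± 0.10, adjusted p = 0.00627, and 0.0965 with the 3 wild-type libraries alone). The 8 Pcdhb members tested changed by −1.77 to −1.02, beside a median over all genes of −0.60. Without the filter 45 of 56 members were called, beside 52.9% of all genes lower and 17.2% higher. All 14 Pcdha and all 21 Pcdhb members were lower, and of the 21 Pcdhg members 8 were lower and 2 higher, Pcdhgc4 and Pcdhgc3 (1.52 ± 0.16, adjusted p = 4.18e-06). Among nuclei with 2000 to 3000 genes, again without the filter, 21 members were called, 17 lower and 4 higher, beside 27.8% of all genes lower and 21.9% higher. Those 4 were Pcdhgc3 (2.31 ± 0.23, adjusted p = 3.1e-07), Pcdhgc4 (0.85 ± 0.21, adjusted p = 0.00332), Pcdhgb1 and Pcdhga5, and 17 of the 21 Pcdhg members had a change above 0 there. Pcdhgc5 was not called among these nuclei (−0.16 ± 0.23, adjusted p = 0.6). Pcdha11.1 was lower there (−1.9 ± 0.23, adjusted p = 3.52e-06 in limma). Pcdha11, the other row of its symbol, was not called (−0.18 ± 0.14, adjusted p = 0.304).

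In oligodendrocyte-like against D1 MSN-like nuclei all 11 members tested were lower, where 70% of all 12732 genes tested were called lower. Pcdha11.1 (−2.42 ± 0.14, adjusted p = 3.31e-09 in limma), Pcdhgc5 (−1.88 ± 0.15, adjusted p = 8.37e-08) and Pcdhb17 (−1.84 ± 0.14, adjusted p = 5.22e-08) changed most in their gene clusters. Pcdhb17 was at 24.8, 40.2 and 17.1 in wild-type and 9.92, 22.8 and 25.1 in heterozygous oligodendrocyte-like nuclei, none near the D1 MSN-like values above. Without the filter 52 of 56 were lower, beside 56.5% of all genes, and Pcdhgc3 was not called (−0.11 ± 0.14, adjusted p = 0.527). Among nuclei with 2000 to 3000 genes 19 members were lower, beside 28.1% of all genes, and 1 was higher, beside 18.1%: Pcdhgc3 (0.83 ± 0.23, adjusted p = 0.00725). Pcdha11.1 was among those lower (−1.56 ± 0.29, adjusted p = 0.000262 in limma), and the row Pcdha11 was not called (−0.13 ± 0.12, adjusted p = 0.439).

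In OPC-like against D1 MSN-like nuclei 7 of 11 members tested were lower, all of them Pcdhb, where 53.7% of all 12074 genes tested were called lower. The largest called change was that of Pcdhb16, from 88.5 ± 18.3 to 33.6 ± 26.3 (−1.43 ± 0.31, adjusted p = 0.00213 in limma). Heterozygous replicate 1 had only 29 OPC-like nuclei and Pcdhb16 at 0 in them. Without the filter 14 members were lower, beside 38.9% of all genes, and 1 was higher, beside 10.2%: Pcdhgc3 (1.2 ± 0.43, adjusted p = 0.045). With 2000 to 3000 genes per nucleus 3 members were higher (Pcdhgc3, Pcdhga5 and Pcdhb10), beside 11.9% of all genes, and 2 were lower (Pcdha1 and Pcdhb19), beside 19.2%. Pcdhgc3 was then higher by 2.32 ± 0.42 (adjusted p = 0.000403), and Pcdhb16 was not called (−1.0 ± 0.45, adjusted p = 0.108), nor was it with the heterozygous libraries alone (adjusted p = 0.0538).

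Among neurons fewer members were called than in astrocyte-like or oligodendrocyte-like nuclei, though not always fewer than in OPC-like ones. In GABAergic interneuron-like against D1 MSN-like nuclei 2 of 13 members tested were called, where 39.4% of all 12432 genes tested were called higher and 25.2% lower. These were the C-types Pcdhgc4, higher (0.79 ± 0.15, adjusted p = 0.000386 in limma), and Pcdhgc5, lower (−0.67 ± 0.17, adjusted p = 0.00363, and 0.117 with the 3 heterozygous libraries alone). Without the filter 9 of 56 were called, 3 higher and 6 lower, beside 27.5% of all genes higher and 16.7% lower. The 3 higher were Pcdhgc4, Pcdhac2 (0.80 ± 0.22, adjusted p = 0.0141) and Pcdhb3 (1.01 ± 0.17, adjusted p = 0.00066), and the 6 lower were all Pcdhg members, led by Pcdhga10 (−0.84). Pcdhb3 had a mean of 31.3 ± 5.36 in GABAergic interneuron-like and 10.5 ± 2.70 in D1 MSN-like nuclei, and the lowest interneuron library, at 25.6, lay above the highest D1 MSN-like one, at 13.9. With 2000 to 3000 genes per nucleus (315 interneuron nuclei) 5 members were called, all lower, beside 11.6% of all genes. Neither Pcdhgc4 (0.43 ± 0.45, adjusted p = 0.555) nor Pcdhgc5 (−1.04 ± 0.55, adjusted p = 0.217) was among them, and the estimates of Pcdhac2 (−0.21 ± 0.37) and Pcdhb3 (−0.17 ± 0.38) were below 0.

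In glutamatergic neuron-like against D1 MSN-like nuclei 6 of 19 members tested were called, all higher, where 47.7% of all 13503 genes tested were called higher. Pcdha11.1 rose most (0.63 ± 0.10, adjusted p = 0.000488 in limma), at 67.2, 95.4 and 102 in the wild-type and 89.0, 116 and 108 in the heterozygous libraries, all above the D1 MSN-like range. Pcdhgc5 (0.33 ± 0.10, adjusted p = 0.0151) and Pcdhb17 (0.23 ± 0.08, adjusted p = 0.0229) rose by less, and Pcdha5, Pcdhga12 and Pcdhgb4 were the other members called. The median change of the tested members was 0.14, beside 0.17 over all genes. Without the filter 12 members were called, all higher, of which 8 were Pcdha, beside 37.1% of all genes. Among nuclei with 2000 to 3000 genes no member was called, beside 13.1% of all genes, with 362 glutamatergic neuron-like nuclei in that range. With a library left out 2 to 6 members were called, with 2 without heterozygous replicate 3 and 3 without heterozygous replicate 1. The share of all genes called in these fits is not given here, so the counts are not read as a result about the members. Without wild-type replicate 3 the adjusted p of Pcdhb17 was 0.0681 and that of Pcdhgc5 0.0522, and without heterozygous replicate 1 or 3 that of Pcdhb17 was 0.0575 or 0.0733.

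D2 MSN-like and D1 MSN-like nuclei differed little in the members. Of 23 tested, 1 was called, where 8.33% of all 13122 genes tested were called higher and 26.4% lower. It was Pcdhga9 (0.29 ± 0.10, adjusted p = 0.0319 in limma), at 21.3, 34.6 and 25 in the wild-type and 32.8, 21.1 and 32.8 in the heterozygous D2 MSN-like nuclei. Its D1 MSN-like values, 16.5, 22.7 and 17.2 and then 23.2, 16.4 and 30.9, overlapped these. The call was lost in 7 of the alternatives, at adjusted p from 0.0563 to 0.952, among them leaving out wild-type replicate 3 (0.0714) or heterozygous replicate 1 (0.075) or 2 (0.0563). Changes of the tested members ran from −0.19 to 0.29. Without the filter 0 of 56 members were called, beside 17.6% of all genes, and 0 with 2000 to 3000 genes per nucleus, beside 3.79%.

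The comparison of the genotypes, the contrast the study was designed for, gave no called member in any of the 15 populations tested. Of the 56 members, 26 passed the filter in at least 1 population and 30 in none, and members were tested in 5 populations. A p that misses the threshold does not show that the genotypes are alike: on data simulated from these libraries the same fit recovered 78% of genes changed by 1 on the log2 scale in all nuclei (14399 genes), 71% among D1 (13433 genes) and 85% among D2 MSN-like nuclei (12737 genes). The changed genes were drawn at random from all genes tested, so the recovery of the members themselves was not measured.

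In all nuclei 19 members were tested, 0 were called and 0 had an unadjusted p under 0.05, beside 0% of all 14399 genes called and 9.96% with an unadjusted p under 0.05. Their changes ran from −0.07 to 0.24, 11 above and 8 below 0, with a median of 0.03 beside 0.07 over all genes. Levels over all nuclei combine the level within a class with the share of each class, and the 2 cannot be told apart there. The 3 members of smallest p were Pcdha11.1, Pcdha5 and Pcdhga12. Pcdha11.1 was at 27.9, 38.8 and 42.4 in the wild-type and 47.4, 42.1 and 43.6 in the heterozygous libraries, with overlap (0.24 ± 0.14, adjusted p = 0.551 in limma). Pcdha5 was at 20.1, 18.9 and 21.6 in the wild-type and 27.3, 23.5 and 22.0 in the heterozygous libraries, without overlap (0.18 ± 0.11, adjusted p = 0.562). Pcdhga12 overlapped, at 50.5, 62.6 and 65.6 and at 62.7, 68.3 and 69.1 (0.15 ± 0.11, adjusted p = 0.619). Groups did not overlap for Pcdha5, higher, and Pcdhb18, lower (20.5, 21.5 and 20.6 against 18.1, 20.2 and 20; named after its values were seen), beside 14.8% of all genes higher and 4.44% lower without overlap.

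In D1 MSN-like nuclei 25 members were tested, 0 were called and 0 had an unadjusted p under 0.05, beside 0.0149% of all 13433 genes called and 10.2% with an unadjusted p under 0.05. Without the filter on low values, 1 of 56 had an unadjusted p under 0.05. The 10.2% is for the fit with the filter, and the share of all genes without it is not given here. The changes ran from −0.29 to 0.30, 10 above and 15 below 0, with a median of −0.03 beside 0.06 over all genes. The member of smallest p, Pcdha1, was at 19.3, 28.2 and 24.6 in the wild-type and 18.6, 17.6 and 17.0 in the heterozygous libraries. Its groups did not overlap, as in 5.09% of all genes for this direction (0 members were higher without overlap, beside 11.7%), and the change did not pass the test (−0.29 ± 0.17, adjusted p = 0.583 in limma). Pcdhb21 was at 64.3, 65.7 and 57.4 against 47.8, 47.2 and 61.8 (−0.23 ± 0.15, adjusted p = 0.612), and Pcdhgb5 at 11.9, 18.2 and 27.9 against 19.9, 25.8 and 30.9 (0.30 ± 0.23, adjusted p = 0.68). Both overlapped between genotypes.

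In D2 MSN-like nuclei 22 members were tested, 0 were called and 1 had an unadjusted p under 0.05, beside 0.00785% of all 12737 genes called and 8.57% with an unadjusted p under 0.05. The changes ran from −0.47 to 0.13, with a median of 0.01 beside 0.04 over all genes. That member was Pcdhb9, at 29.9, 40.7 and 38.0 in the wild-type and 20.9, 26.0 and 23.1 in the heterozygous libraries, without overlap (−0.47 ± 0.18, adjusted p = 0.514 in limma). The same member was at 29.4, 38.1 and 36.1 against 28.6, 36.5 and 35.5 in D1 MSN-like nuclei, and the difference of the genotype change between the classes did not pass the test (0.43 ± 0.14 for D1 minus D2, adjusted p = 0.877). Of 22 members tested for this difference 0 were called, beside 0% of all 12686 genes, and 5 had an unadjusted p under 0.05, beside 5.16%. Without the filter it was 3 of 56 members, beside 1304 of 23594 genes. Pcdhgc4 did not overlap either, at 33.1, 35.8 and 38.9 against 20.9, 30.8 and 29.9 (−0.31 ± 0.18, adjusted p = 0.692). Those 2 were the members lower without overlap, beside 5.51% of all genes, and 0 were higher, beside 9.01%. Pcdhb7 was at 64.0, 63.1 and 97.6 against 46.4, 77.9 and 61.7 (−0.24 ± 0.21, adjusted p = 0.801).

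In glutamatergic neuron-like nuclei 14 members were tested and 0 called (0 of 13140 genes called, and 0 members beside 5.24% of genes with an unadjusted p under 0.05). Pcdhga12 had the smallest p there, at 78.8, 84.0 and 91.6 in the wild-type and 94.4, 122 and 126 in the heterozygous libraries, without overlap (0.38 ± 0.17, adjusted p = 0.933 in limma), as in 5.98% of all genes for this direction and 4.67% for the other. The clusters behind this class were unevenly mixed, with 534 nuclei of 1 cluster from heterozygous replicate 1 and 2 from replicate 3, and the part of this mix was not tested. In astrocyte-like nuclei 4 members were tested and 0 called (0 of 10990 genes called, and 0 members beside 6.35% of genes with an unadjusted p under 0.05). Pcdhga12 was at 62.3, 69.7 and 63.5 against 48.2, 61.7 and 55.2 there, again without overlap but in the other direction (−0.21 ± 0.16, adjusted p = 0.876), as in 4.74% of all genes, with 7.41% higher.

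**Figure D5:**
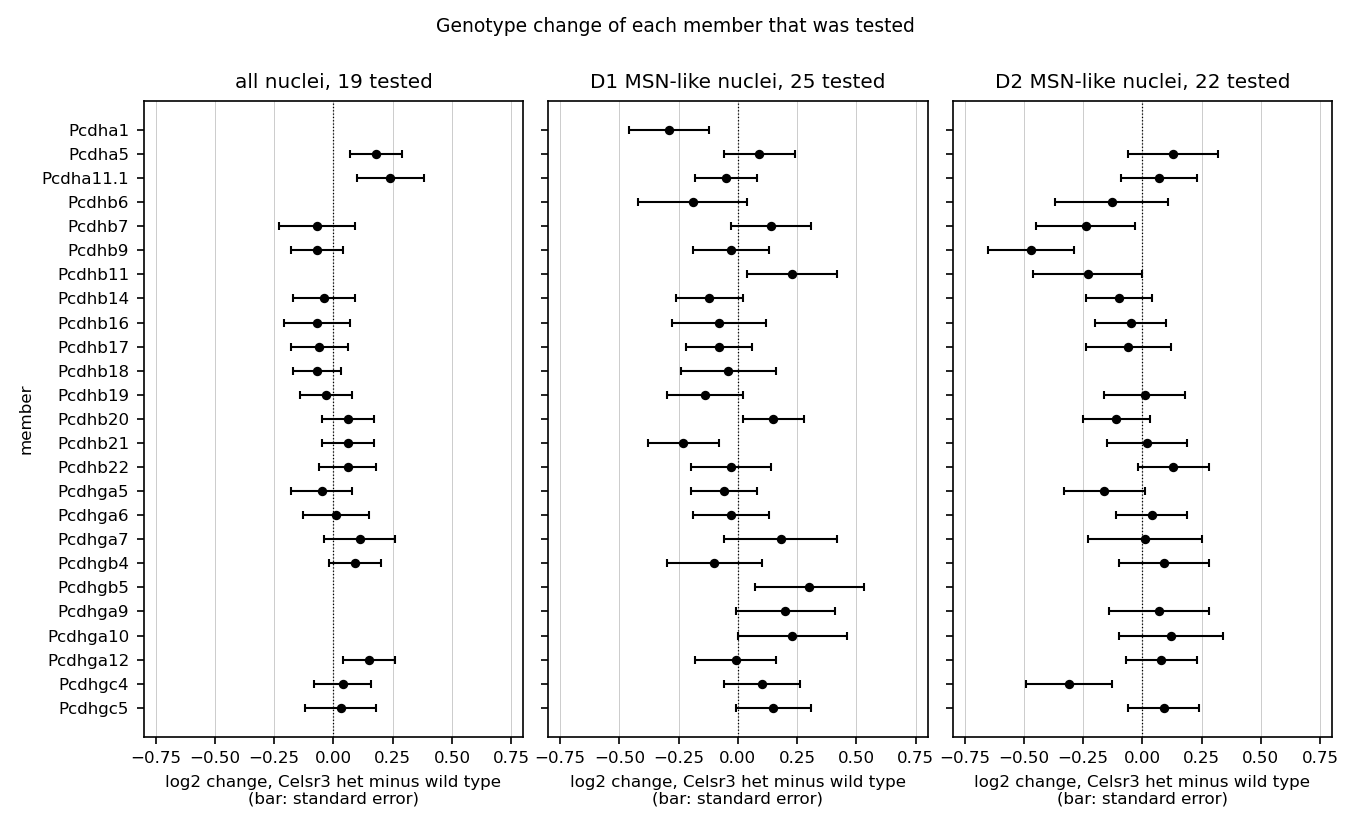
Log2 change of each tested member, Celsr3 heterozygous minus wild type (horizontal axis; points are limma estimates and bars standard errors, 3 libraries per group), in all nuclei (19 members) and in nuclei of the D1 (25) and D2 MSN-like class (22). Estimates lie on both sides of 0, none passed an adjusted p of 0.05, and the most negative is Pcdhb9 in D2 MSN-like nuclei at −0.47.

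Genes that regulate the choice of protocadherin promoters, act downstream of the proteins or flank the gene clusters were listed beside the members, and 0 of them were called in all nuclei or in either MSN-like class. Of 13 regulators (CTCF, cohesin and its loaders, DNA and histone methylation factors) 12 were tested, and all 12 had a change above 0 in all nuclei, with a median of 0.07 beside 0.07 over all genes. The same list had 12 of 12 above 0 in D1 MSN-like nuclei, with a median of 0.12 beside 0.06 and 2 genes with an unadjusted p under 0.05, beside 10.2% of all genes. In D2 MSN-like nuclei 11 of 12 were above 0, with a median of 0.09 beside 0.04 and again 2 such genes, beside 8.57% of all genes. Smchd1, a silencing factor of the Pcdh locus, had an estimate of 0.09 ± 0.06 in all nuclei (unadjusted p = 0.183 and adjusted p = 0.591 in limma). The cohesin subunits Stag2 in D1 MSN-like nuclei (0.23 ± 0.09, adjusted p = 0.45) and Smc1a in D2 MSN-like nuclei (0.23 ± 0.10, adjusted p = 0.565) did not pass the test either.

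Of 18 signalling partners and processing enzymes 17 were tested, with 14 changes above and 3 below 0 in all nuclei and a median of 0.08. The smallest p values were those of Axin1 (0.20 ± 0.10, adjusted p = 0.51 in limma) and Ryk (0.15 ± 0.07, adjusted p = 0.51). Among D1 MSN-like nuclei they were those of Ryk (0.22 ± 0.08, adjusted p = 0.391) and Marcks (0.25 ± 0.10, adjusted p = 0.45). In D2 MSN-like nuclei they were those of the protease Adam10 (0.19 ± 0.10, adjusted p = 0.615) and of Wasf1 (0.15 ± 0.08, adjusted p = 0.647), a member of the actin-regulating WAVE complex. Of 10 neighbouring genes 8 were tested, all 8 with a change above 0 in all nuclei, led by Hars (0.12 ± 0.07, adjusted p = 0.541) and Hdac3 (0.12 ± 0.10, adjusted p = 0.639), with a median of 0.07. Of these 8, 5 were above 0 in D1 MSN-like nuclei, with Hars2 (adjusted p = 0.795) and Zmat2 (adjusted p = 0.80) of smallest p, and 5 among D2 MSN-like nuclei, with Ik (adjusted p = 0.868) and Diaph1 (adjusted p = 0.872).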

How the data were processed

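The deposited table holds whole numbers for 24841 genes in 48834 nuclei of 6 libraries. Per the submitters' processing notes, Cell Ranger and Seurat 4.1 were used, and the builds mm10 and GRCm38 are named without a role; the normalization, annotation, filters and use of strand are not given in the sources used here. The values deposited by the authors were taken for a score: UMI values corrected for depth and rounded to whole numbers. This was read from the values: totals per nucleus lay between 4523 and 10638 (coefficient of variation 10.7%), and in 10.0% of nuclei rare genes stood at 2 or 3 and never at 1. The depth before correction is unknown, so the number of genes per nucleus (1284 to 5263) is given in its place, no count model was used, and limits for values of 0 cover counting error only. Each column's name gave its library, 0 columns were left out, and 274 barcodes (0.56%) occurred in more than 1 library. The labels call the replicates biological and say no more of the animals, so p values measure the spread between these libraries.

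Nuclei were clustered on 2000 variable genes, members left out, with 30 principal components, 15 neighbours and Leiden resolution 1.0 in Python 3.11.15 (scikit-learn 1.9.0, scanpy 1.11.5 and igraph 0.11.9), giving 58 clusters. Clusters were named from 187 marker entries in 19 lists; the naming limits were chosen with the clusters in view, and 7978 nuclei stayed unnamed, among them 3234 of a cluster with oligodendrocyte markers. Scrublet (expected rate 0.06) called 0.317% to 0.824% of nuclei per library; in place of its calls, 838 nuclei (1.72%) were removed that had a score above 0.25 or lay in 1 of 8 clusters where over 40% had. Mean values per nucleus, library and class were put on the scale log2(mean + 0.01), and limma 3.58.1 in R 4.3.3 tested them with a trended empirical Bayes fit, adjusted by Benjamini-Hochberg over all genes tested. Genes needed a mean of at least 0.02 and a summed value of at least 30 per library. Genotypes were compared with 3 libraries per group in each class whose libraries all held 20 nuclei or more, and classes with the library as a fixed block. The procedure was tested on simulated data.

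Values per library are given for the 5 C-type members, the 4 members of highest mean in all nuclei per gene cluster, the 3 of smallest genotype p in all nuclei and in either MSN-like class, and the 1 of smallest p elsewhere. In class comparisons the called member with the largest change each way per gene cluster is named, and in the related lists the 2 genes of smallest p, except for 1 gene that is not reported here; other members named were chosen after their values were seen. The members, lists and tests were chosen with earlier results of these data known. Alternatives covered the pseudocount, filters, doublets, array weights, single libraries left out, 1 genotype alone and, added after the data were seen, nuclei with 2000 to 3000 genes without a filter. The genes Pcdha10, Pcdhb1 and Pcdhgb8 were not analysed here.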

Additional observations from a re-analysis of the deposited data

Results flagged for a closer look

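In 2 of 21 groups of 6 libraries (the 3 gene clusters in 7 classes), 1 library stood apart from the other 5 by more than 0.625 of the group's range, and chance gives this in about 1 in 20 groups. The summed Pcdha level of GABAergic interneuron-like nuclei was 226 per 1000 nuclei in wild-type replicate 2, against 286 to 321 in the others. The summed Pcdhg level of glutamatergic neuron-like nuclei was 696 in heterozygous replicate 2, against 479 to 560 in the others.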

How the results depend on the processing

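No member was called for genotype under any alternative run, while the number of genes called among D1 MSN-like nuclei ranged from 1 to 528 (2 in the report) and in D2 MSN-like nuclei from 0 to 155 (1 in the report), both highest with array weights; all 165 values of named members kept their side of the threshold. For the class comparisons the number of members called changed as follows. Without the filter on low values it was 0 in D2 MSN-like (1 in the report), 9 in GABAergic interneuron-like, 12 in glutamatergic neuron-like, 45 in astrocyte-like, 15 in OPC-like and 52 in oligodendrocyte-like nuclei. With wild-type libraries only it was 0 in D2 MSN-like and 1 in glutamatergic neuron-like nuclei, and with heterozygous libraries only 0, 1, 3 and 0 in D2 MSN-like, GABAergic interneuron-like, glutamatergic neuron-like and OPC-like nuclei. With a library left out it was 0 to 2 in D2 MSN-like and 2 to 6 in glutamatergic neuron-like nuclei, the lowest of these without heterozygous replicate 3 (2) and 1 (3). For 1 genotype alone and for libraries left out, the members tested and the share of all genes called are not given here. Those counts are therefore not read as a result about the members. With 2000 to 3000 genes per nucleus no member passed the filter, and without the filter the number was 0, 5, 0 and 20 in D2 MSN-like, GABAergic interneuron-like, glutamatergic neuron-like and oligodendrocyte-like nuclei. Of 167 values of named members, 25 lost their call and 0 reversed. This count leaves out members called only without the filter. Of these, Pcdhac2 and Pcdhb3 were called higher in GABAergic interneuron-like nuclei, with estimates of −0.21 and −0.17 among nuclei with 2000 to 3000 genes.

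Some ratios of a summed level to that of D1 MSN-like nuclei moved by more than their SD over libraries with all nuclei. Among nuclei with 2000 to 3000 genes the SD was wider, and not every move exceeded it. The ratios that moved there were, for Pcdha, 1.1 (D2 MSN-like), 1.03 (GABAergic interneuron-like), 1.18 (glutamatergic neuron-like), 0.1 (astrocyte-like), 0.721 (OPC-like) and 0.159 (oligodendrocyte-like). For Pcdhb they were 0.464, 0.885 and 0.476 in the last 3 classes, and for Pcdhg 1.04 in glutamatergic neuron-like nuclei and 1.53, 1.77 and 0.72 in the last 3. With each nucleus scaled to the same total they were 0.314, 0.609 and 0.278 for Pcdhb in astrocyte-like, OPC-like and oligodendrocyte-like nuclei, and 0.911 and 0.943 for Pcdhg in the first 2 of these. The cause was not tested.

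Same-numbered libraries deviated with correlations of −0.04, 0.15 and −0.07 in all nuclei, 0.27, 0.01 and 0.18 in D1 and 0.26, 0.05 and 0.18 in D2 MSN-like nuclei. Since not every pair was over 0.1 in any of the 3, the numbers were not taken to pair the libraries, and with the replicate block 0 members were called. Few nuclei limit the rarer classes, and 30 members passed the filter on low values for the genotype test in no population.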
